A study of Homo sapiens with 16 samples.

Results

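The clustered histone genes encode the linker histone H1 and the core histones H2A, H2B, H3 and H4 that package newly made DNA. They were taken as the rows of the gene count table with the biotype protein_coding and a name starting HIST1H, HIST2H, HIST3H or HIST4H, which gave 71 of 58735 genes: 6 for H1, 17 for H2A, 18 for H2B, 15 for H3 and 15 for H4. Of the 71, 55 lie in the HIST1 cluster on chromosome 6, 12 in HIST2 and 3 in HIST3 on chromosome 1, and 1, HIST4H4, on chromosome 12.

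Most clustered histone genes are transcribed as cells copy their DNA, and their messenger RNA ends in a conserved stem-loop in place of a poly-A tail. The stem-loop is bound by SLBP and cut by a U7 small nuclear ribonucleoprotein complex, and the messenger is degraded when DNA synthesis stops. Some of the genes, HIST2H2BE and HIST1H1C among them, are also known to give polyadenylated transcripts, which are found in differentiated cells that have left the cycle. Libraries made by poly-A selection therefore hold the polyadenylated transcripts of these genes, and the share of each gene's messenger that they capture was not tested here.

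RNA came from differentiated HepaRG, a human liver line whose cells resemble hepatocytes and, in part, cholangiocytes. All cells were kept in medium with 2% DMSO, insulin and triamcinolone acetonide, a glucocorticoid, and were treated for 3 days. The 4 groups were the combination (30 nM formoterol with 0.25 mM palmitic acid and 0.5 mM oleic acid), the fatty acids alone at the same doses, formoterol alone at 30 nM, and a control with the vehicle, 1% BSA. The labels name BSA for the control alone and do not say whether the treated cells had it, so comparisons with control cannot tell the agents apart from a difference in BSA if there was one. Formoterol is a beta-2 adrenergic agonist that raises cyclic AMP. Each group had 4 libraries, called independent replicates in the series' text. Nothing says that separate cultures were used, and a p-value here covers the variation among these libraries alone, which may be technical. The series is a design of both agents alone and together, and 5 pairwise comparisons and the interaction were tested.

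The totals of the libraries, in units of 1000000 counts, ran from 32.5 to 65.7, and histone genes took 0.0757% to 0.119% of them. The hepatocyte genes ALB and APOB and the cholangiocyte gene KRT19 were measured in every group. EPCAM (cholangiocytes), COL1A2 (fibroblasts) and CDH5 (endothelium) had 0 counts in all 16 libraries, and VWF (endothelium) had at most 0.178 CPM, in a fatty acid library, and 0 in the other groups. Other markers of these types were measured in every group. The group means ran from 349 to 637 CPM for DCN and 79.5 to 106 CPM for LUM (fibroblasts), and 44.2 to 162 CPM for KDR (endothelium). Combination replicate 2 stood apart: averaged over 10 hepatocyte markers, its log2 CPM less that of control was −0.778, while the other combination libraries had 0.549 to 0.657. Counts of called members and family sums that use the combination are also given without it.

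The stem-loop was sought anywhere in the annotated transcripts (GENCODE release 29, GRCh38) as the 16 letters GGNNCTTTTNAGAGCC, where N is any base. All matches in clustered histone genes lay after the stop codon, and the position in other genes was not read. It was found in 24 of 19684 protein-coding genes (0.122%), and 22 of the 24 were clustered histone genes. No gene for H1 or H4 matched. Stem-loops with other letters were not sought, so a gene without a match may still have one. The windows below are shown because they are the sites that mark where the unpolyadenylated messenger would end; they belong to the 3 members with the letters and the highest levels, to HIST2H2BF, which had the largest fall among the H2B genes that passed with fatty acids, and to HIST1H3G, which had no count. Capitals mark the 16 letters, and each window runs from 5 bases before them to 5 bases after, in the sense of the gene.
HIST1H2AC, chr6:26124664-26124689, plus strand: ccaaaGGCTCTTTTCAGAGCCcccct
HIST2H2BE, chr1:149886183-149886208, minus strand: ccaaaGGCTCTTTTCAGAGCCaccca
HIST1H2BC, chr6:26123467-26123492, minus strand: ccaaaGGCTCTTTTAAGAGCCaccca
HIST2H2BF, chr1:149811880-149811905, minus strand: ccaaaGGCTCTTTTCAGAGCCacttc
HIST1H3G, chr6:26270918-26270943, minus strand: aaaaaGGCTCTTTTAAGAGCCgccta

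The windows were picked by these letters, so their likeness is no result. A match stood both in a gene at the top of the levels and in a gene with no count. The longest HIST2H2BE transcript ended 1729 bases after the window and that of HIST1H2AC 1128 bases after it. In both, the hexamer AATAAA, the usual signal for polyadenylation, stood within the last 40 bases. For HIST1H3G the longest transcript ended 1518 bases past the window, so a long annotated end did not by itself go with a measured level.

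Over the 71 genes, 15 had a transcript running at least 100 bases past the stem-loop, and these held 77.8% of the summed histone CPM (counts per 1000000, scaled by TMM factors). HIST1H2AC with 437 CPM and HIST2H2BE with 217 CPM made up most of the 722 CPM of these 15. Another 7 had the letters only in transcripts that ended nearer to them, and these held 3.7%. Of these 7, 3 had AATAAA in the last 40 bases. HIST1H2BD held 26.5 of their 34.4 CPM. It has 2 coding transcripts, and its gene runs on to base 26171349, far past the letters, so it does not end there as a gene. A further 15 had untranslated sequence without the letters and held 5.7%, and 34 were annotated as coding sequence only and held 12.7%. In the order given, the classes had medians of 0.643, 3.59, 0.706 and 0.0583 CPM per kb of gene length. Of their members, 66.7%, 71.4%, 80.0% and 17.6% passed the filter on low counts. AATAAA stood in the last 40 bases of 20 members (28.2%), against 68.7% of all protein-coding genes with transcripts. Of those 20 members 17 passed the filter on low counts (85.0%), and of the 51 without it 16 did (31.4%). These are descriptions of annotated models: reads beyond an annotated end are not counted for the gene, so the model bears on the count as well as on the transcript.

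**Figure D1:**
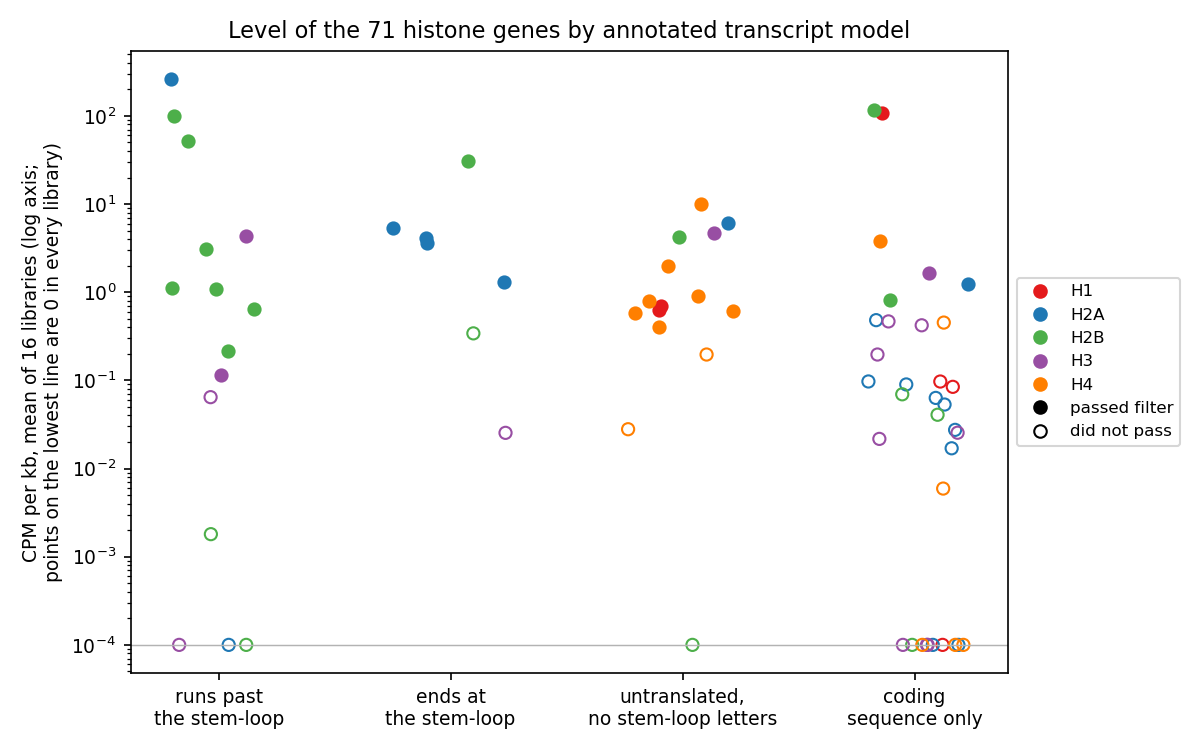
Mean level of each of the 71 clustered histone genes over 16 libraries in CPM per kb of the deposited gene length (log axis), by the kind of annotated transcript; colours are families, filled points passed the filter and open points did not. The 14 genes with no count in any library lie on the lowest line, and the points above 40 CPM per kb belong to HIST1H2AC, HIST2H2BE, HIST1H2BC, HIST1H1C and HIST1H2BK.

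The filter on low counts (edgeR's filterByExpr by group) passed 33 of the 71 members: 3 of 6 for H1, 7 of 17 for H2A, 11 of 18 for H2B, 4 of 15 for H3 and 8 of 15 for H4. The 33 held 99.83% of histone counts. Of the 38 that did not pass, 14 had no count in any library, which over the 16 libraries allows a level of up to 0.00504 CPM for counting error alone. That limit may not hold for HIST1H3D and HIST2H3PS2, where 100% of the 50-base words of the transcripts also occur in other genes. Nor may it hold for HIST1H2AK, which overlaps HIST1H2BN on the other strand by 393 bases. HIST2H3A, a gene for H3 that shares 100% of its 50-base words with HIST2H3C, was the lowest to pass with a mean of 0.193 CPM. HIST1H3B, also for H3, was the highest to miss the filter with 0.192 CPM. Nearly all histone signal therefore came from the 33 genes that passed, and none of the 3 HIST3 genes passed.

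By counts, H2A held 49.4% of the histone signal, H2B 38.3%, H1 7.70%, H4 2.49% and H3 2.08%. Per length the order of the first pair turned: H2B had 42.0% of the summed CPM per kb and H2A 38.6%, then H1 with 15.0%, H4 with 2.68% and H3 with 1.62%. The core histones join nucleosomes in equal numbers, so these shares describe the poly-A captured transcripts and not the protein. One gene dominated most families. HIST1H2AC gave 95.1% of H2A counts, HIST1H1C 98.5% of H1 counts, HIST1H3E 64.4% of H3 counts, HIST2H2BE 61.1% of H2B counts and HIST1H4I 56.3% of H4 counts.

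Per length, HIST1H2AC stood highest with a mean over the 16 libraries of 262 CPM per kb. It was followed by HIST1H2BK with 117, HIST1H1C with 109, HIST2H2BE with 98.9, HIST1H2BC with 51.8 and HIST1H2BD with 30.4 CPM per kb. HIST1H4I, the highest gene for H4, had 10.0 CPM per kb and HIST1H3E, the highest for H3, had 4.66 CPM per kb. HIST1H2BK and HIST1H1C were annotated as coding sequence only. Since 74.1% of the 50-base words of HIST1H2BK also occur in other genes, 61.4% in H2BFS alone, its level is uncertain.

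All 5 families averaged less in the 3 treated groups than in control. H2B differed most in percent with the combination and with fatty acids, H1 with formoterol, and H3 least in each. The sums below are descriptions with no test. Bulk libraries cannot tell fewer cells of a type from less RNA per cell.

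H2B genes summed to 282, 259, 288 and 266 CPM in the combination, 297, 292, 283 and 294 CPM with fatty acids, 394, 412, 382 and 424 CPM with formoterol and 459, 435, 453 and 462 CPM in control. The fatty acid groups did not overlap either group without fatty acids, and formoterol lay below control in every library. The means stood −39.5%, −35.5% and −10.8% from control for the combination, fatty acids and formoterol.

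H2A genes summed to 387, 336, 381 and 427 CPM in the combination, 431, 473, 410.3 and 428 CPM with fatty acids, 473, 473, 461 and 513 CPM with formoterol and 577, 516, 503 and 559 CPM in control. The combination and the fatty acids lay below control in every library, and formoterol overlapped control. The means stood −29.0%, −19.2% and −10.9% from control.

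H1 genes averaged 64.3 ± 3.80 CPM in the combination, 66.2 ± 8.28 CPM with fatty acids, 70.3 ± 10.3 CPM with formoterol and 83.8 ± 12.2 CPM in control (SD, n = 4 each). Control replicate 2, with 66.3 CPM, lay within the range of the treated libraries. H4 genes averaged 19.6 ± 1.29 CPM in the combination, 22.1 ± 3.53 CPM with fatty acids, 24.7 ± 1.23 CPM with formoterol and 26.0 ± 1.08 CPM in control. H3 genes averaged 19.0 ± 0.784, 18.5 ± 1.83 and 19.6 ± 0.883 CPM in the same 3 treated groups and 20.3 ± 1.84 CPM in control, so that all 4 groups overlapped.

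All 71 genes together averaged 759 ± 45.5 CPM in the combination, 834 ± 36.7 CPM with fatty acids, 998 ± 50.3 CPM with formoterol and 1121 ± 49.4 CPM in control. The combination stood −32.3% from control, and −30.3% without its replicate 2. Without HIST2H2BE, H2B averaged 125 CPM in the combination, 129.8 CPM with fatty acids, 148 CPM with formoterol and 149.6 CPM in control, so that most of the H2B difference in CPM lay in that 1 gene. Leaving out combination replicate 2, the combination stood −21.4% from control for H1, −26.1% for H2A, −38.4% for H2B, −6.34% for H3 and −24.9% for H4.

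**Figure D2:**
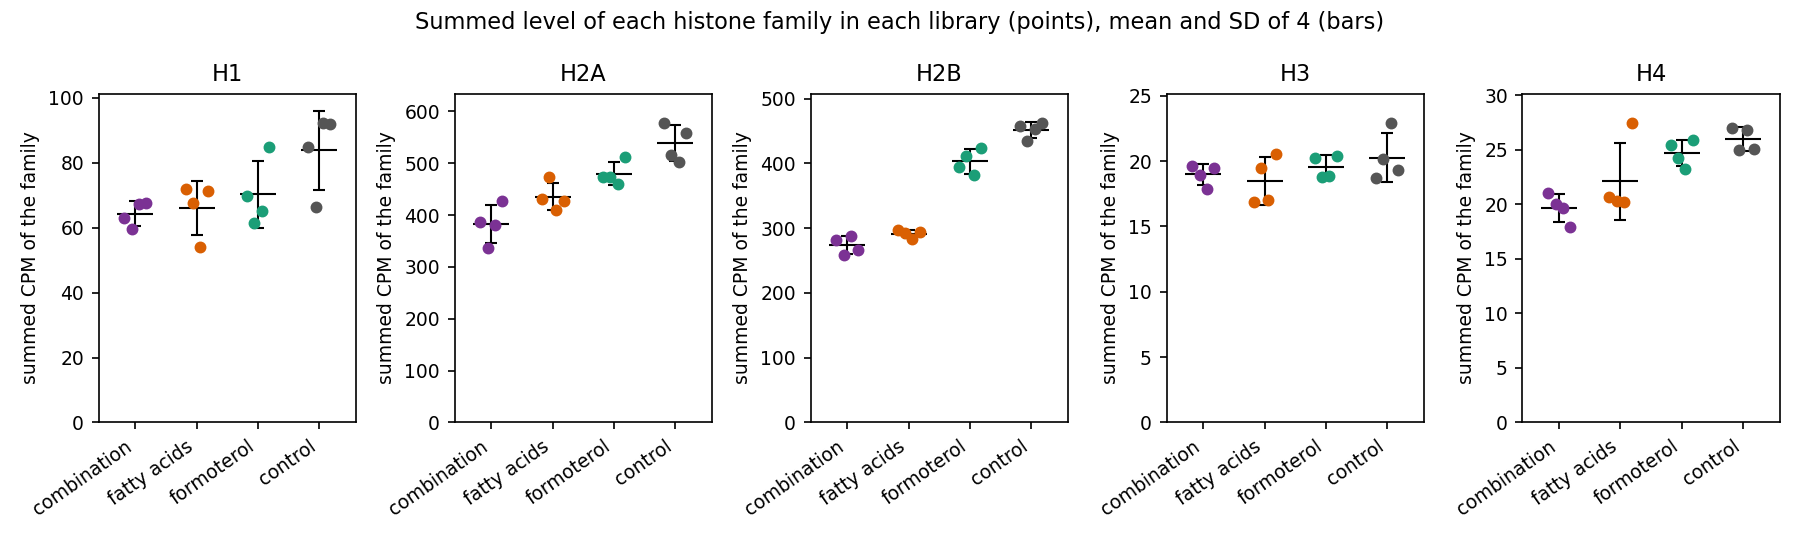
Summed CPM of the members of each histone family in every library (points), with the mean and SD of 4 libraries (bars), for the combination, fatty acids, formoterol and control. H2B with fatty acids or the combination lies between 259 and 297 CPM, below all libraries of formoterol and control, while H3 overlaps in all groups.

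With fatty acids against control, 9 of the 33 tested members fell and none rose at an adjusted p under 0.05 (edgeR quasi-likelihood test, Benjamini-Hochberg over 18121 genes). The 9 are 27.3% of the members tested, where 7.62% of all genes tested fell, and the members' median log2 fold change was −0.29 against 0.01 over all genes tested. They comprised 4 genes for H2B, 3 for H2A, 1 for H1 and 1 for H3. No gene for H4 passed.

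HIST2H2BE (chromosome 1, 149884459 to 149886652, minus strand), which encodes H2B, had the smallest adjusted p of the members. It had 166, 162, 156 and 161 CPM with fatty acids, against 308, 298, 298 and 306 CPM in control. The groups did not overlap, and the libraries within each lay close together. It fell by 0.90 ± 0.06 on the log2 scale (SE, adjusted p = 3.0e-10).

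HIST2H2BF, a neighbouring H2B gene whose annotated transcripts reach 1479 bases past the stem-loop, had 6.65, 6.17, 6.69 and 7.36 CPM with fatty acids, against 11.4, 16.2, 12.0 and 13.5 CPM in control. The groups did not overlap, and control replicate 2 was the highest library. It fell by 0.98 ± 0.13 on the log2 scale (adjusted p = 9.8e-06). Its exons overlap those of FCGR1A on the other strand by 177 bases, and reads within these bases cannot be told apart without strand. FCGR1A had 0.753 counts for each count of HIST2H2BF. Of the 50-base words of HIST2H2BF, 25.7% also occur in other genes.

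HIST1H2AC (chromosome 6, 26124145 to 26139116, plus strand), which encodes H2A, had 414, 458, 393 and 408 CPM with fatty acids, against 546, 489, 478 and 531 CPM in control. All fatty acid libraries lay below all control libraries, by a narrow gap. It fell by 0.29 ± 0.07 on the log2 scale (adjusted p = 0.0073). HIST1H2AG, also for H2A, had 11.1, 7.91, 11.2 and 11.0 CPM with fatty acids, against 20.0, 18.7, 15.8 and 18.0 CPM in control. Its groups lay well apart, and it fell by 0.81 ± 0.12 on the log2 scale (adjusted p = 8.1e-05).

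HIST1H1C (chromosome 6, 26055787 to 26056428, minus strand), the linker histone H1.2, had 70.0, 66.6, 53.1 and 70.2 CPM with fatty acids, against 82.7, 65.5, 91.0 and 90.5 CPM in control. The groups overlapped through control replicate 2. It fell by 0.34 ± 0.11 on the log2 scale (adjusted p = 0.035).

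The other 4 members that fell with fatty acids were HIST1H2BD and HIST1H2BK for H2B, HIST2H2AA4 for H2A and HIST2H3D for H3. HIST1H2BD averaged 22.5 ± 1.60 CPM with fatty acids and 28.8 ± 3.71 CPM in control. HIST1H2BK averaged 39.4 ± 1.15 CPM with fatty acids and 48.0 ± 5.11 CPM in control. HIST2H2AA4 averaged 2.33 ± 0.558 CPM with fatty acids and 3.74 ± 0.667 CPM in control, and HIST2H3D 0.335 ± 0.150 CPM with fatty acids and 1.09 ± 0.381 CPM in control (SD, n = 4 each). HIST1H2BK and HIST2H2AA4 overlapped between the groups, HIST1H2BD and HIST2H3D did not. Almost all of HIST2H2AA4 (97.1% of its 50-base words) also occurs in HIST2H2AA3, so the counts of the pair can be split between them, and 80.4% of the words of HIST2H3D occur in other genes, 57.7% in HIST2H3DP1. The calls of HIST1H1C, HIST1H2BD, HIST1H2BK, HIST2H2AA4 and HIST2H3D were each lost with at least 1 library left out. Without control replicate 4 the count was 5, of 36 members then tested.

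HIST1H2BC, HIST1H3E and HIST1H4I did not pass with fatty acids, at levels where the SE was 0.07 to 0.11. HIST1H2BC had 47.6, 45.9, 46.0 and 47.5 CPM with fatty acids, against 46.2, 41.4, 47.0 and 49.5 CPM in control, a log2 fold change of 0.02 ± 0.07. HIST1H3E had 12.4, 13.1, 10.6 and 14.6 CPM with fatty acids, against 11.9, 10.8, 14.7 and 12.5 CPM in control, a log2 fold change of 0.03 ± 0.11. Both sets of libraries overlapped fully, and HIST1H4I stood at −0.20 ± 0.10.

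**Figure D3:**
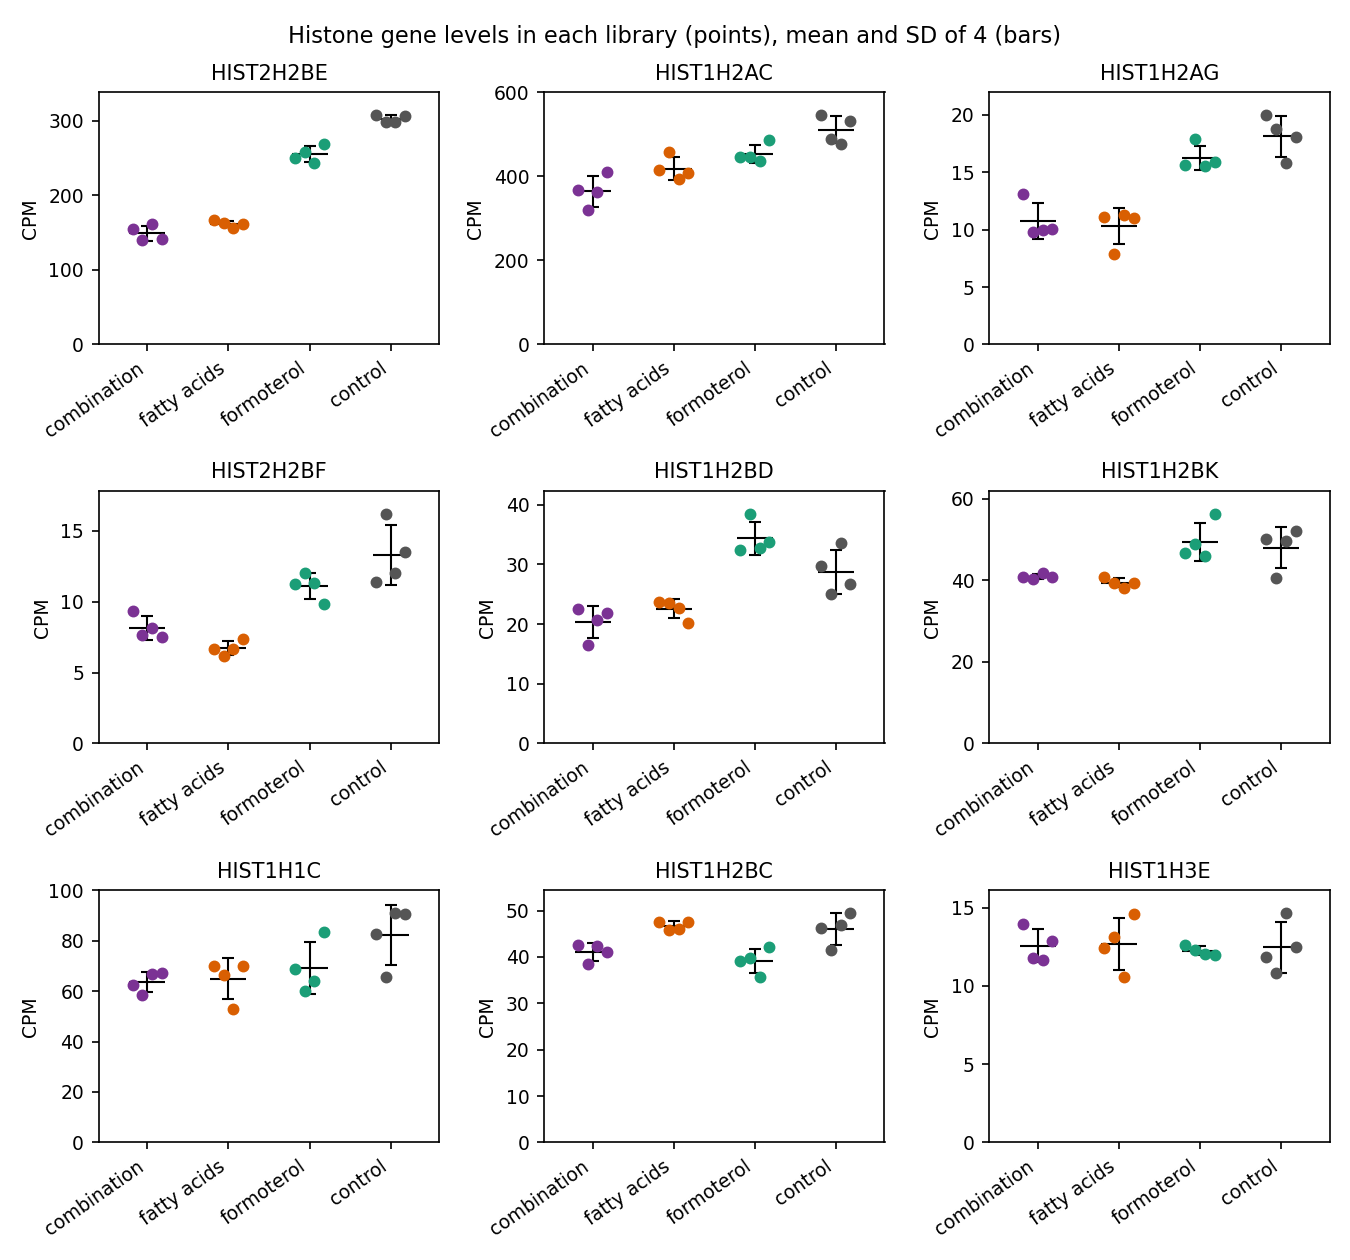
CPM of 9 histone genes in every library (points), with the mean and SD of 4 libraries (bars), for the combination, fatty acids, formoterol and control. HIST2H2BE lies at 140.1 to 166 CPM in the libraries with fatty acids, below 243 to 308 CPM in those without, while HIST1H3E overlaps in all groups.

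With formoterol against control, HIST2H2BE and HIST1H2BC fell and no member rose. The 2 calls are 6.06% of the 33 tested members, close to the 4.57% of all genes tested that fell, and the members' median log2 fold change was 0.04. HIST2H2BE had 250.2, 258, 243 and 269 CPM with formoterol, against the control values above. The groups did not overlap, and the log2 fold change was −0.25 ± 0.06 (edgeR adjusted p = 0.0069). HIST1H2BC had 39.0, 39.9, 35.7 and 42.0 CPM with formoterol, against 46.2, 41.4, 47.0 and 49.5 CPM in control. The groups overlapped, and the log2 fold change was −0.23 ± 0.07 (adjusted p = 0.033). That call was lost when control replicate 1, 3 or 4 or formoterol replicate 1, 2 or 3 was left out, and with no filter on low counts (adjusted p = 0.12).

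HIST1H2BD stood at 32.5, 38.4, 32.7 and 33.7 CPM with formoterol, against 29.7, 25.1, 33.5 and 26.7 CPM in control. The groups overlapped, and its log2 fold change of 0.26 ± 0.10 did not pass (adjusted p = 0.12). With scaling by total counts only, the median of all genes shifted by −0.13 in this comparison. Then 5 of the 33 members fell, where 1918 of the 18121 genes tested fell.

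With the combination against control, 8 of the 33 tested members fell and none rose, where 6.68% of all genes tested fell. The members' median log2 fold change was −0.41, against 0.00 over all genes. Without combination replicate 2, 7 of the 36 members then tested fell, where 1235 of 18517 genes tested fell. The 3 comparisons with control share its 4 libraries, so their calls are not independent of each other.

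HIST2H2BE had 155, 140.1, 161 and 141 CPM in the combination. Every library lay below control and below formoterol. The log2 fold change was −1.02 ± 0.06 against control (adjusted p = 7.6e-11) and −0.99 without combination replicate 2. HIST1H2AC had 368, 319, 362 and 409 CPM in the combination, with replicate 2 the lowest. It lay below control in every library, with a log2 fold change of −0.49 ± 0.07 (adjusted p = 4.8e-05), and −0.43 without replicate 2.

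HIST1H2AG had 13.1, 9.82, 9.95 and 10.0 CPM in the combination, below all control libraries, and its log2 fold change was −0.76 ± 0.12 (adjusted p = 0.00017). HIST2H2BF had 9.37, 7.63, 8.11 and 7.51 CPM, also below all control libraries, with −0.70 ± 0.12 (adjusted p = 0.00039). HIST1H2BD had 22.5, 16.5, 20.6 and 21.9 CPM, again below all control libraries, with −0.50 ± 0.10 (adjusted p = 0.0020) and −0.41 without combination replicate 2. HIST1H1C fell with a log2 fold change of −0.37 ± 0.11 (adjusted p = 0.025), HIST2H2AA4 with −0.70 ± 0.22 (adjusted p = 0.036) and HIST1H2BK with −0.23 ± 0.08 (adjusted p = 0.0496). HIST1H1C and HIST1H2BK overlapped between the groups, and each of the last 3 calls was lost with at least 1 library left out, that of HIST1H2BK with 14 of 16. Without combination replicate 2, the calls of HIST2H2AA4 and HIST1H2BK were lost, and those of the other 6 genes held at log2 fold changes of −0.99 to −0.33. With no filter on low counts the calls of HIST1H2BK and HIST2H2AA4 were lost too.

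With the combination against formoterol, which asks what fatty acids did in the presence of the agonist, 9 of 33 tested members fell and none rose. Of all genes tested, 8.97% fell. With scaling by total counts only, the median of all genes shifted by 0.13, and 4 members fell and 1, HIST1H2BC, rose. Of the 18121 genes tested, 696 fell and 2965 rose with that scaling. Without combination replicate 2, 8 of the 36 members then tested fell, where 1372 of 18517 genes tested fell.

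HIST2H2BE had a log2 fold change of −0.77 ± 0.06 against formoterol (adjusted p = 6.5e-09). HIST1H2BD, with 22.5, 16.5, 20.6 and 21.9 CPM in the combination against 32.5, 38.4, 32.7 and 33.7 CPM with formoterol, followed with −0.75 ± 0.10 (adjusted p = 3.6e-05). HIST1H2AG stood at −0.60 ± 0.12, HIST1H2AC at −0.31 ± 0.07, HIST2H2BF at −0.44 ± 0.12, HIST1H2BK at −0.27 ± 0.08 and HIST2H2AA4 at −0.73 ± 0.22. The libraries of the groups overlapped for none of these 7 genes, which were picked by their calls in this comparison. The share of all genes without overlap was not counted.

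Both H4 genes that passed anywhere did so in this comparison. HIST1H4I had 11.3, 11.5, 12.1 and 11.4 CPM in the combination, against 13.8, 14.1, 13.5 and 15.9 CPM with formoterol. HIST1H4E had 2.69, 2.40, 1.96 and 1.92 CPM, against 3.14, 3.72, 3.83 and 3.62 CPM. Neither gene's groups overlapped, and the log2 fold changes were −0.31 ± 0.10 (edgeR adjusted p = 0.042) and −0.68 ± 0.21 (adjusted p = 0.029). The call of HIST1H4I was lost with 9 of 16 libraries left out in turn and that of HIST1H4E with 5, and both were lost with no filter and with scaling by total counts only. HIST1H4I was also lost with only the compared groups fitted, and with the replicate number as a block (adjusted p = 0.054), where HIST1H2BE, an H2B gene, was called in its place.

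With the combination against fatty acids, edgeR called no member, where 2.8% of all genes tested passed in either direction and 1.12% fell. At an unadjusted p under 0.05 there were 3 members (HIST1H2AC, HIST1H2BC and HIST2H2BF), and DESeq2 also called 0. HIST2H2BE stood at −0.12 ± 0.06 (adjusted p = 0.36), with overlapping libraries. The interaction asks whether the effects of both agents add on the log2 scale, and is positive where the combination is higher than their sum. There edgeR called no member, where 5.5% of all genes passed, 2.12% positive and 3.38% negative. An unadjusted p under 0.05 was reached by 2: HIST2H2BF with 0.54 ± 0.18 and HIST1H2BD with −0.40 ± 0.15. DESeq2 called 1 member, upward. HIST2H2BE stood at 0.13 ± 0.08 and was called, at 0.28 (adjusted p = 0.033), with scaling by total counts only, where the median of all genes shifted by 0.16.

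Across the 5 pairwise comparisons, 12 of the 33 tested members were called at least once and 21 never. Of 9 members averaging at least 10 CPM, 8 were called, HIST1H3E being the exception. Of 15 with 1 to 10 CPM, 3 were, and of 9 under 1 CPM, 1 was. The share of all genes called at least once, in total or at these levels, was not counted. These counts therefore describe the members and do not set them apart from other genes. The SE with fatty acids against control ran from 0.06 to 0.12 in the highest of these classes and from 0.47 to 1.03 in the lowest, so changes of the size seen for HIST1H2AC could not be detected in the low members.

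**Figure D4:**
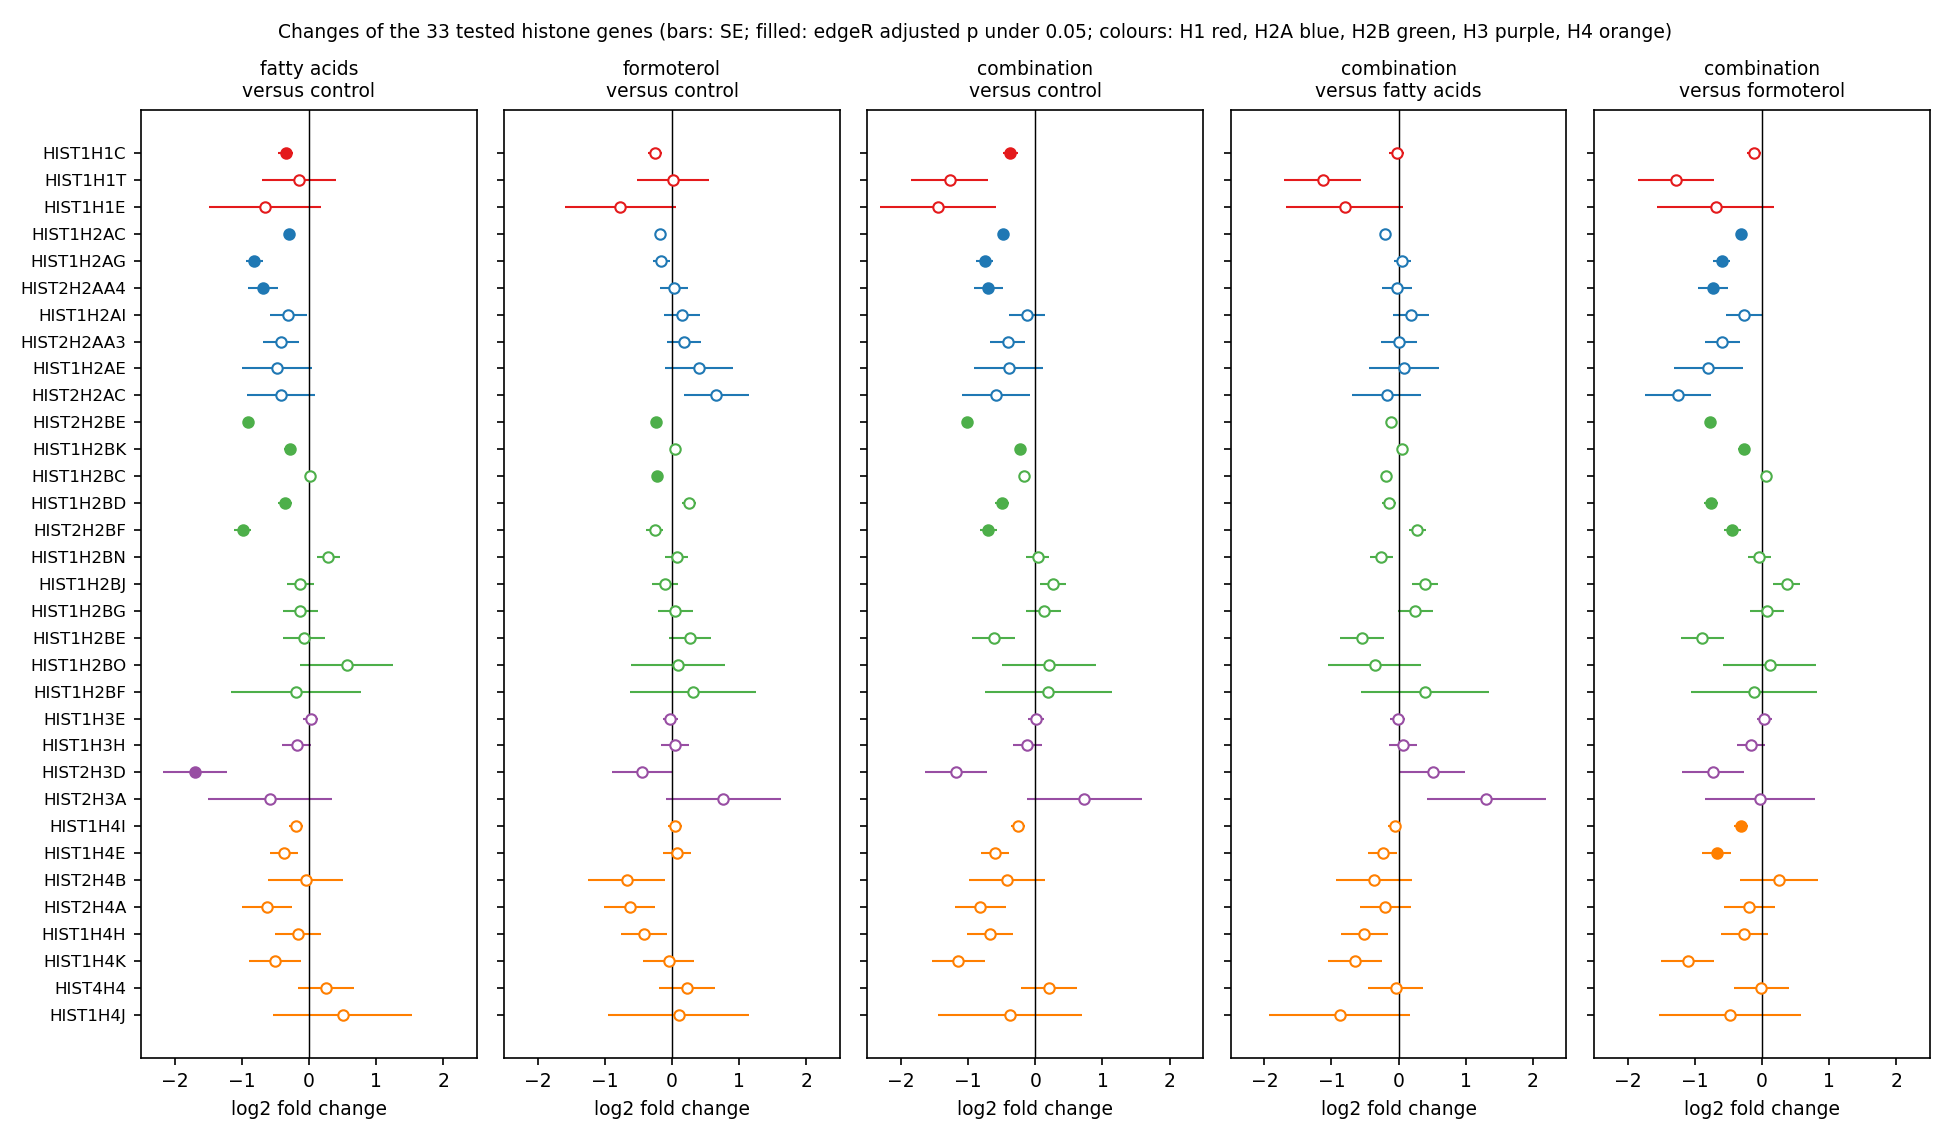
Log2 fold change (points) and SE (bars) of the 33 tested histone genes in the 5 pairwise comparisons, by family and falling level; filled points passed an adjusted p under 0.05. Filled points all lie left of 0, none appears for the combination against fatty acids, and the bars widen towards the low members.

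Promoter sequence was compared across families because H2A and H2B genes lie head to head in pairs. Of the 71 members, 61 matched RefSeq (GRCh38.p14) windows from 250 bases before to 50 after the start. The octamer ATTTGCAT, the letters bound by OCT1 in H2B promoters, was sought on both strands and stood in 14 of 18 H2B windows and 11 of 14 H2A windows, but in 0 of 6 for H1, 1 of 10 for H3 and 0 of 13 for H4. Of 35116 windows of that length in the table, 1.77% held it. CCAAT on either strand stood in 83.6% of member windows against 34.61% of all, TATAAA in 65.6% against 11.53%, and the cyclic AMP response element TGACGTCA in 8 of 61 (13.1%) against 1.85%. Windows of paired genes overlap and were searched on both strands. A site in the shared part is therefore counted for both genes, in the family counts and in the totals. A match describes letters only and shows no binding.

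The 250 bases before the RefSeq start are shown from 5′ to 3′ in the sense of the gene. They are those of HIST2H2BE and HIST1H2AC, the members with the highest CPM, and of HIST1H1C and HIST1H4I, which lead families with no octamer. The gene model counted for HIST1H4I runs from 27138588 to 27139881, so its window lies inside that model and not before it. Capitals mark the octamer (ATTTGCAT or ATGCAAAT), CCAAT or ATTGG, and TATAAA or TTTATA.
HIST2H2BE, chr1:149886683-149886932, minus strand: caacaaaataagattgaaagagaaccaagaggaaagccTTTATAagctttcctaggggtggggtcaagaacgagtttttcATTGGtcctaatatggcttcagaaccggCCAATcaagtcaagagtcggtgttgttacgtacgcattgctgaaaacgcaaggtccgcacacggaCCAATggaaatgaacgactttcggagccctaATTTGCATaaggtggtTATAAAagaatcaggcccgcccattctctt
HIST1H2AC, chr6:26123922-26124171, plus strand: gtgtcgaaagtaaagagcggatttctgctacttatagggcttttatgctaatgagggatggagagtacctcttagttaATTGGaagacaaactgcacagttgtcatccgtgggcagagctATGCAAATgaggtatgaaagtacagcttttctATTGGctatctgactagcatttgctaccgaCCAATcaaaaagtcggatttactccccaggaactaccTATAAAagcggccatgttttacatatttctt
HIST1H1C, chr6:26056471-26056720, minus strand: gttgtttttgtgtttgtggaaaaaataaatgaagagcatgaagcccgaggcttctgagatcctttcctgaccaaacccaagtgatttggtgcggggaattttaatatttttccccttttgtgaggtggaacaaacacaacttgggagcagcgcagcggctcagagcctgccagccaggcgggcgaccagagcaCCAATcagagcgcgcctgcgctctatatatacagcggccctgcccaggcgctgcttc
HIST1H4I, chr6:27139032-27139281, plus strand: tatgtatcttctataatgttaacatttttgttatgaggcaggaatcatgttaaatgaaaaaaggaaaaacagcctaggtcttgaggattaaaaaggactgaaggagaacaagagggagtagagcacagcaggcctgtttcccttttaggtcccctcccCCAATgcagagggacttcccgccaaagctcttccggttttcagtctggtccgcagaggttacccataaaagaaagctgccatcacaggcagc

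Genes of a head-to-head pair share most of such a window. Among the 4 pairs in which both genes passed the filter, the higher level per kb was 79.8, 5.05, 1.47 and 1.18 times the lower, the last values being those of HIST1H2AG with HIST1H2BJ and of HIST1H2AE with HIST1H2BG. HIST2H2BE and HIST2H2AC, the H2A gene across from it, share 265 bases, and HIST2H2BE had 98.9 CPM per kb against 1.24 CPM per kb for HIST2H2AC. HIST2H2AC averaged 0.363 ± 0.182 CPM with fatty acids and 0.485 ± 0.157 CPM in control, a log2 fold change of −0.41 ± 0.50 that did not pass. HIST1H2AC and HIST1H2BC share 255 bases and had 262 and 51.8 CPM per kb. HIST1H2AC fell with fatty acids, while HIST1H2BC, with fatty acids, stood at 0.02 ± 0.07. The difference between the paired genes in their response was not tested.

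Genes of DNA replication and division that passed were higher in the treated groups, where the histone genes that passed were lower. Of 27 S phase genes, 18 rose with fatty acids against control, 25 with the combination against control and 24 with the combination against formoterol, 2 rose with formoterol against control, and none fell in these 4 comparisons; with scaling by total counts only, none rose with formoterol. Of all genes tested, 8.93%, 7.58%, 9.48% and 5.76% rose in the same 4. RRM2, a subunit of ribonucleotide reductase, averaged 121 ± 26.3 CPM in the combination, 78.7 ± 12.7 CPM with fatty acids, 50.4 ± 5.61 CPM with formoterol and 36.3 ± 3.85 CPM in control. CDC6, which loads the replicative helicase, had a log2 fold change of 1.52 ± 0.14 in the combination and 0.88 ± 0.14 with fatty acids, both against control.

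With the combination against fatty acids, 10 of 27 S phase genes rose, against 1.68% of all genes, and 4 did without combination replicate 2. Without that library 25 rose with the combination against control and 23 against formoterol. Of 10 mitosis genes, 9 rose with fatty acids, 9 with the combination and 3 with formoterol, all against control, and the last count was 6 without combination replicate 2 and 0 with scaling by total counts only. TOP2A, the topoisomerase that untangles chromosomes, stood at 1.04 ± 0.15 with fatty acids and 1.82 ± 0.15 with the combination. The part of cell number or cycle phase in the histone values was not tested.

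**Figure D5:**
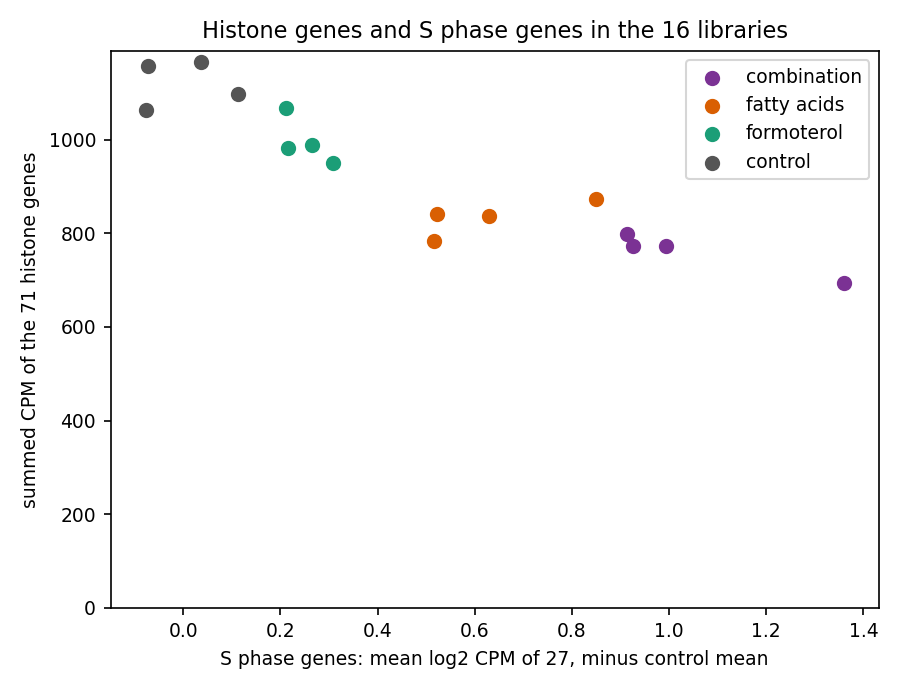
Summed CPM of the 71 histone genes in each of the 16 libraries against the mean log2 CPM of 27 S phase genes minus its control mean. Control libraries (1062 to 1166 CPM) overlap formoterol libraries, combination libraries (693 to 798 CPM) overlap fatty acid libraries, and the lowest point is combination replicate 2; no relation was tested, since the groups form separate clusters.

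Of 14 genes for transcription of the histone clusters and processing of histone messengers, 3 passed with fatty acids against control (1 rose and 2 fell), where 16.5% of all genes tested passed. With the combination against control 3 passed (2 rose and 1 fell), where 14.3% of all genes did, and with formoterol none passed, where 10.3% did. With scaling by total counts only, 0 rose and 2 fell with fatty acids, and 2 rose and 0 fell with the combination. CDK2, the kinase that drives the start of S phase with cyclin E, stood at 0.41 ± 0.13 with fatty acids and 0.78 ± 0.13 with the combination, and cyclin E2 (CCNE2) at 0.84 ± 0.20 with the combination, all against control. CPSF2, a subunit of the cleavage complex, fell by 0.23 ± 0.06 with fatty acids and by 0.20 ± 0.06 with the combination, and SYMPK, the scaffold of that complex, by 0.18 ± 0.06 with fatty acids. SLBP and NPAT, the cluster's transcription coactivator, chosen here after their values were seen, did not pass in any comparison. SLBP averaged 40.7 ± 3.74 CPM in the combination, 38.1 ± 3.37 CPM with fatty acids, 36.9 ± 1.83 CPM with formoterol and 36.9 ± 1.05 CPM in control.

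Histone genes outside the clusters mostly have polyadenylated transcripts, and H2AFX makes both forms. Of 12, 11 passed the filter, and with the combination against control 4 rose (H2AFZ, H2AFX, CENPA and H2AFY) and H2AFJ fell, where 7.58% of all genes tested rose and 6.68% fell. With combination replicate 2 left out, 4 rose and none fell. H2AFZ, the variant H2A.Z, averaged 61.5 ± 3.21 CPM in the combination, 46.9 ± 4.27 CPM with fatty acids, 49.1 ± 5.73 CPM with formoterol and 39.6 ± 2.89 CPM in control. H2AFX, whose protein is phosphorylated at DNA breaks, rose with fatty acids by 0.53 ± 0.14 and with the combination by 0.85 ± 0.14 on the log2 scale. H1F0, the linker histone H1.0 of resting and differentiated cells, averaged 87.7 ± 8.01 CPM with formoterol and 61.0 ± 3.77 CPM in control, a log2 fold change of 0.52 ± 0.10 (edgeR adjusted p = 0.0026). Its interaction, −0.51 ± 0.15, passed (adjusted p = 0.043), but not with scaling by total counts only.

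Of 18 histone chaperones, which carry histones to and from DNA, 2 rose with fatty acids (ASF1B and HJURP), 3 with the combination (the same 2 with CHAF1B) and none with formoterol, all against control, and none fell, where 8.93%, 7.58% and 5.76% of all genes tested rose. Without combination replicate 2, 2 rose and 1 fell with the combination. With scaling by total counts only, 2 fell with formoterol, where 1918 of the 18121 genes tested fell. HJURP, the chaperone of the centromeric variant CENPA, averaged 19.0 ± 7.61 CPM in the combination, 11.2 ± 2.49 CPM with fatty acids and 6.03 ± 0.778 CPM in control. ASF1B, which hands over H3 and H4 in dividing cells, averaged 12.8 ± 2.51, 9.04 ± 1.90 and 5.36 ± 1.11 CPM in the same 3 groups.

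Cell type markers also moved between the groups. Of 10 hepatocyte markers, 6 rose with fatty acids, 7 rose with formoterol, and 5 rose and 1 fell with the combination, all against control, and 7 were negative in the interaction. Of all genes tested, 8.93%, 5.76% and 7.58% rose in these 3 comparisons and 3.38% were negative in the interaction. Without combination replicate 2, 8 rose and 1 fell with the combination, and 9 were negative in the interaction. Their summed level ran from 21081 to 53505 CPM in the combination, 47879 to 55579 CPM with fatty acids, 53356 to 57876 CPM with formoterol and 24131 to 36333 CPM in control. The lowest combination value is that of replicate 2, and the other 3 libraries ran from 48124 to 53505 CPM. Of 8 cholangiocyte markers, 6 passed the filter, of which 3 rose and 1 fell with fatty acids and likewise with the combination, and 1 rose with formoterol. Their sums ran from 369 to 459 CPM in the combination, 443 to 493 CPM with fatty acids, 302 to 327 CPM with formoterol and 262 to 278 CPM in control. Stellate and fibroblast markers (6 of 8 passed) summed to 606 to 765 CPM in the combination, 757 to 886 CPM with fatty acids, 469 to 512 CPM with formoterol and 639 to 803 CPM in control. Endothelial markers (3 of 5 passed) summed to 55.2 to 111 CPM in the combination, 160.1 to 173 CPM with fatty acids, 39.7 to 52.4 CPM with formoterol and 119.8 to 137 CPM in control. Leukocyte markers (3 of 6 passed) summed to at most 32.1 CPM. The part of cell makeup in the histone values was not tested.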

How the data were processed

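Gene counts of 16 libraries were deposited by the authors as one table of raw counts. Per the submitters' processing notes, HISAT2 2.0.5, DESeq2 and the build mm39 were named; the gene IDs are human, and all 71 members have the name, coordinates and strand of GENCODE release 29 (GRCh38), so counts were read as human. For the counting program and strandedness, nothing was given in the sources used here. Per the labels' protocols, libraries were primed with random hexamers on poly-A RNA, and size selection kept 370 to 420 bp.

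Genes were filtered with filterByExpr (minimum count 10), which left 18121 genes and 99.94% of counts, scaled with TMM and fitted with edgeR 4.0.16 (R 4.3.3) as 4 group means with 12 residual degrees of freedom. SE is the log2 fold change over the root of F. Two-sided p-values were adjusted over all genes tested, with a threshold of 0.05. CPM per kb uses the deposited gene length. Counts cover counting error only: 3 counts, the limit that 0 allows, are 0.0457 to 0.0924 CPM in a library. The fit was checked on simulated data.

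The members, gene lists and alternatives were chosen with earlier results of these data known. Named members were HIST2H2BE, the 3 highest of each family, up to 5 largest falls and rises per comparison (adjusted p under 0.05, and 1 CPM or more in whichever group was higher), and 1 each side of the filter; named list genes were up to 2 with the smallest p per list and comparison. Beyond that rule SLBP, NPAT, HIST2H2AC and HIST1H3G, and further called members and list genes, were described after their values were seen. Lists were histone cluster transcription and histone mRNA processing, histone genes outside the clusters, histone chaperones, S phase genes, mitosis genes and markers of hepatocytes, cholangiocytes, stellate cells and fibroblasts, leukocytes and macrophages, and endothelium. Alternatives were DESeq2 size factors, total counts, other filters, DESeq2 1.42.0, a replicate block, each library left out, only the groups compared, at least 1.5-fold, and protein-coding genes only. Shared sequence was measured as 50-base words of the annotated transcripts. Figures used matplotlib 3.10.9.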

Additional observations from a re-analysis of the deposited data

Results flagged for a closer look

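In 100 groups of 4 libraries, 9 held a library whose gap to its nearest neighbour exceeded Dixon's 95% critical value for 4 libraries; chance gives about 1 in 20. HIST2H4B, an H4 gene that shares 97.2% of its 50-base words with HIST2H4A, had 5.79 CPM in fatty acid replicate 4, against 0.632 to 0.908 CPM in the other 3. In the same library the H4 genes summed to 27.4 CPM, against 20.2 to 20.6 CPM in the others. HIST1H2AG, an H2A gene, was apart in 3 groups: combination replicate 1 was high with 13.1 CPM against 9.82 to 10.0 CPM, fatty acid replicate 2 was low with 7.91 CPM against 11.0 to 11.2 CPM, and formoterol replicate 2 was high with 17.9 CPM against 15.6 to 15.9 CPM. None of these values reached the range of the control libraries except that of formoterol replicate 2. HIST2H2AA4 was low in control replicate 3 with 2.75 CPM, against 3.97 to 4.15 CPM in the others, and HIST1H4I was high in control replicate 1 with 16.5 CPM, against 12.7 to 13.3 CPM. HIST1H3H was low in fatty acid replicate 1 with 2.90 CPM, against 5.36 to 5.69 CPM, and HIST1H3B, just under the filter, was high in control replicate 2 with 0.522 CPM, against 0.224 to 0.267 CPM. Combination replicate 2, the library furthest from its group over all genes, was not among these 9.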

How the results depend on the processing

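Of the 28 calls of members, 14 held in every alternative other than the fold threshold, and none of the 28 changed direction. All calls of HIST2H2BE and HIST1H2AC and those of HIST1H2AG held, as did HIST2H2BF against control and HIST1H2BD with the combination. With library totals as the only scaling, 5 members fell with formoterol against control, 5 were called with the combination against formoterol (4 fell and 1 rose) and 2 in the interaction (HIST2H2BE and HIST2H2BF, both positive); the cause was not tested, but the median of all genes moved by −0.13, 0.13 and 0.16 in these 3. In the same 3 comparisons 20.2%, 81.0% and 74.6% of all calls were upward, against 55.7%, 51.4% and 38.5% with TMM. Without members that share over 50% of their 50-base words with another gene, an alternative chosen after seeing the data, 6, 2, 6, 0, 7 and 0 were called for fatty acids, formoterol and the combination against control, the combination against fatty acids and against formoterol, and the interaction. DESeq2 called 1 member in the interaction, and with only the compared groups fitted 1 of 30 members tested fell with formoterol. The cause was not tested. The number of members tested also changed with libraries left out, and was 36 without control replicate 4 or combination replicate 2. With at least 1.5-fold, 5 fell with fatty acids, 0 with formoterol and 4 with the combination, all against control, and 5 with the combination against formoterol. Formoterol levels with library totals were 449 CPM for H2A, 377 for H2B, 18.3 for H3 and 23.1 for H4. Without HIST2H2BE and HIST1H1C, H1 averaged 0.608, 1.18, 1.25 and 1.38 CPM and H2B 125, 129.8, 148 and 149.6 CPM in the combination, fatty acids, formoterol and control. Leaving out each library in turn gave 5 to 10 calls with fatty acids against control (5 without control replicate 4), 1 to 3 with formoterol (1 without control replicate 1, 3 or 4 or formoterol replicate 1, 2 or 3), 5 to 9 with the combination against control (5 without control replicate 1 or 4 or combination replicate 1), 6 to 9 with the combination against formoterol, and 0 to 0 with the combination against fatty acids and in the interaction. The calls lost were HIST1H1C with fatty acids without control replicate 1, 3 or 4 or fatty acid replicate 2 or 3 (highest adjusted p = 0.136) and with the combination without control replicate 1, 3 or 4 or combination replicate 1 (0.0871); HIST2H2AA4 with fatty acids without control replicate 1, 2 or 4 or fatty acid replicate 1 or 3 (0.112), with the combination without control replicate 1, 2 or 4 or combination replicate 1 or 2 (0.119) and against formoterol without formoterol replicate 1 or combination replicate 1 or 2 (0.0852); HIST1H2BD without control replicate 1 or 3 or fatty acid replicate 4 (0.0996); HIST2H3D without control replicate 4 or fatty acid replicate 2 (0.0663); HIST1H2BK with fatty acids without control replicate 4 (0.0596), against formoterol without formoterol replicate 4 (0.0853) and against control in the combination in 14 leave-outs (0.16); HIST1H4E without formoterol replicate 2, 3 or 4 or combination replicate 3 or 4 (0.0754); and HIST1H4I in 9 leave-outs (0.15). Over all genes, 18 counts moved past 1.5 times, 6 of them with the fold threshold. The other 12 were 880 (no filter), 795 (DESeq2), 302 (without fatty acid replicate 3) and 275 (only the compared groups) against 507 for the combination against fatty acids, 1002 without control replicate 3 and 1118 without formoterol replicate 4 against 1872 for formoterol, and 1523 (no filter) or 444 to 653 with 1 library left out against 997 for the interaction. With the fold threshold they were 1105, 642, 993, 184, 1199 and 524, against 2998, 1872, 2583, 507, 3342 and 997 in the same order of comparisons as above.

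The labels give the groups the same replicate numbers. Deviations of the 24 same-numbered pairs correlated between −0.113 and 0.0825, and 7 of 16 libraries correlated best with their own number. Pairing is unsettled without a chance count. With the replicate number as a block, 9 members were called with fatty acids against control, 2 with formoterol, 8 with the combination, 0 with the combination against fatty acids, 9 with the combination against formoterol and 0 in the interaction; HIST1H4I was lost against formoterol and HIST1H2BE gained. With no filter, the calls of HIST2H2AA4 with fatty acids and the combination, HIST1H2BC with formoterol, HIST1H2BK with the combination and HIST1H4E and HIST1H4I against formoterol were lost. Depth limits the low members: 38 of 71 could not be tested, and members under 1 CPM had an SE of at least 0.47. Poly-A selection, gene models that end at the coding sequence and sequence shared between copies limit every level given.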
